A study of Phaseolus coccineus with 4 samples.

Results

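A set of 41 abundant transcripts, of 19883 genes listed in any library, was strongly enriched in the embryo proper over the suspensor in globular embryos of scarlet runner bean (Phaseolus coccineus). The 41 genes were chosen by their own levels. Each had at least 100 RPKM (reads divided by gene length in kilobases and by the depth of the library) in both embryo proper libraries, and its lower embryo proper value was at least 8 times its higher suspensor value. All 4 libraries of the study entered that choice, so the enrichment itself is a description and not a finding. The study sequenced 2 biological replicates per region, embryo proper and suspensor, cut by laser from paraffin sections of 6 microns. All samples came from the cultivar Hammond's Dwarf Red Flower, with seeds fixed 6 days after pollination, and the labels name no mutation or treatment. Each library began with 5 ng of total RNA that was amplified before sequencing. The labels do not say how many embryos or plants stand behind a library.

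As background, the first divisions of a plant zygote set apart an apical and a basal lineage. The apical lineage builds the embryo proper, which goes on to form the shoot and root meristems, the cotyledons and the body axis. The basal lineage builds the suspensor, a short-lived stalk that anchors the embryo and passes nutrients and hormones to it. In scarlet runner bean the suspensor is unusually large, with giant polyploid basal cells, which is why this species has long been used to separate the regions. The deposited tables name genes by IDs alone, which begin with Phvul in the genes printed here. The sources used here do not name the annotation, so the species of these gene models is not stated. Of these IDs, 0 had a match among 34063 genes in the reference table at hand. No function is therefore given to any of the 41 genes, no marker of either region could be looked up to check the labels, and no sequence is printed. Genes are identified by their rank in mean embryo proper level, rank 1 being the most abundant of the 41.

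The 41 genes together held 3.65% and 2.72% of the summed RPKM of embryo proper replicates 1 and 2, against 0.0650% and 0.0613% in suspensor replicates 1 and 2. A few genes carried much of this. The 5 most abundant of the 41 made up 55.8% and 43.1% of their sum in the embryo proper libraries, and 66.8% and 66.1% in the suspensor libraries. By gene, the mean embryo proper level was between 117 and 4597 RPKM with a median of 296, and the mean suspensor level was between 0.443 and 113 RPKM with a median of 1.96. Only 5 of the 41 reached a mean of 1000 RPKM in the embryo proper, while 29 reached 200. Since the regions were measured in bulk, fewer cells of a type and less RNA per cell cannot be told apart.

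Within the embryo proper the 41 genes were abundant but mostly not the leading transcripts. Among the 100 highest genes of embryo proper replicates 1 and 2 there were 5 and 3 of them, and among the 500 highest there were 29 and 23. In the suspensor, none was among the 500 highest genes of either library. There, 32 and 27 of the 41 lay below the median of all 13527 genes that passed a filter on low values, which was 7.97 and 6.75 RPKM in suspensor replicates 1 and 2. The best placed of the 41 in the suspensor stood at position 762 in replicate 1 and 626 in replicate 2. All 41 were nevertheless listed in every library and all passed the filter, which asked for 1 RPKM or more in 2 or more libraries.

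**Figure D1:**
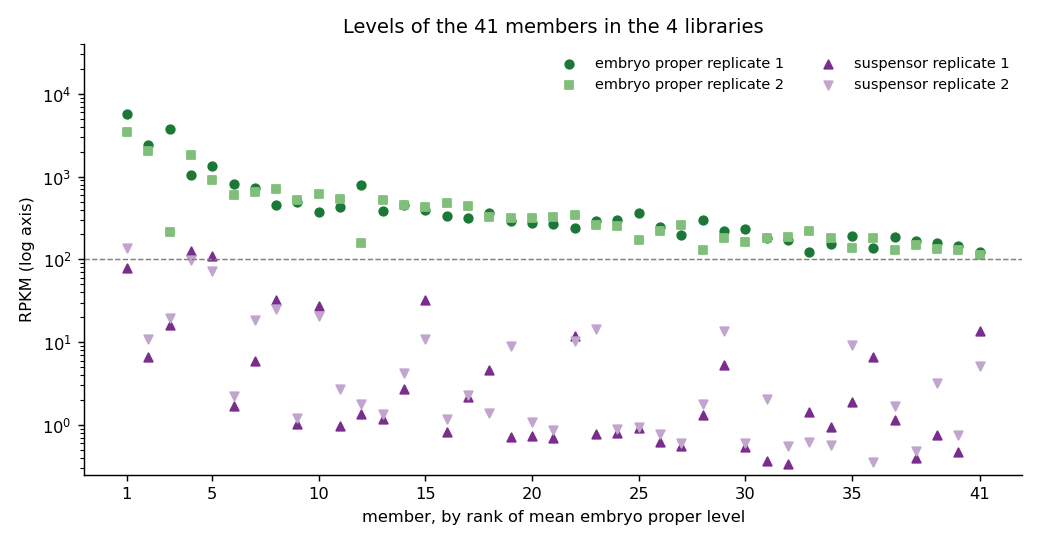
RPKM of each of the 41 genes in each library on a log axis, with genes ordered along the horizontal axis by mean embryo proper level and a dashed line at the 100 RPKM that the choice required. The embryo proper points (circles and squares) run from 5768 RPKM down to 112 RPKM, and the suspensor points (triangles) scatter more widely, from 139 RPKM down to 0.341 RPKM.

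The most abundant of the 41 was Phvul.003G041200, with 5768 and 3426 RPKM in the embryo proper libraries and 78.2 and 139 RPKM in the suspensor libraries. Paired values stand in the order of replicates 1 and 2. It was the sixth most abundant gene of embryo proper replicate 1 and number 17 of replicate 2, and number 1233 and 626 in the suspensor libraries. The replicates of each region differed by 1.68-fold in the embryo proper and 1.77-fold in the suspensor, while the nearest libraries of different regions were 24.7-fold apart. The log2 fold change on log2(RPKM + 1), embryo proper over suspensor, came to 5.40 ± 0.41 (standard error), with 4.42 and 6.39 as the ends of its 95% interval, and limma gave an adjusted p = 0.00387. The gene was chosen on this same contrast, so the interval and the p-value are a description only.

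The gene with the widest gap between the regions was Phvul.004G006200, at rank 9. It stood at 493 and 524 RPKM in the embryo proper libraries, and at 1.04 and 1.23 RPKM in the suspensor libraries. Those suspensor values rested on 56 and 55 reads, recovered from the steps of the RPKM values, and the exact (Clopper-Pearson) 95% intervals were 0.783 to 1.35 and 0.926 to 1.60 RPKM. Such intervals cover the counting error of reads only. They treat reads as independent, which amplified reads are not, so they may be too narrow even for the counting of molecules. The lower embryo proper value was 401 times the higher suspensor value, the largest ratio among the 41. Its log2 fold change was 7.90 on log2(RPKM + 1), 6.39 when 5 was added, 8.69 when 0.1 was added and 8.80 with voom.

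Ranks 2, 4 and 5, all above 1000 RPKM on average in the embryo proper, had contrasting suspensor levels. Rank 2 had 2394 and 2063 RPKM in the embryo proper libraries and 6.55 and 11.0 RPKM in the suspensor libraries. Rank 4 had 1033 and 1815 RPKM in the embryo proper libraries and 127 and 98.6 RPKM in the suspensor libraries. Rank 5 had 1358 and 911 RPKM in the embryo proper libraries and 108 and 72.1 RPKM in the suspensor libraries. Ranks 4 and 5 were thus well detected in the suspensor, whereas rank 2 was near the suspensor median of all genes. Rank 3 stood out for its embryo proper replicates, with 3734 RPKM in replicate 1 and 215 RPKM in replicate 2, against 16.3 and 19.6 RPKM in the suspensor libraries. Its place among the most abundant genes rests on embryo proper replicate 1 alone.

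The 41 genes were spread widely in how far the suspensor fell below the embryo proper. In 19 of them the lower embryo proper value was at least 100 times the higher suspensor value, in 12 it was 20 to 100 times, and in 10 it was 8 to 20 times. These bands were drawn after the values were seen. The 19 genes of the first band had suspensor means between 0.443 and 8.77 RPKM, resting on 15 to 458 reads per library. Their embryo proper means reached from 138 to 2228 RPKM, and the suspensor mean was 0.223% to 0.766% of the embryo proper mean. Each of these suspensor values thus stood above a floor of 3 reads in its own library. In 18 of the 41 the suspensor mean was under 0.5% of the embryo proper mean. Across these 18 genes the means of the regions had a Spearman's rho of 0.93. The 18 were picked by the ratio of these same means, which largely sets that rho, so nothing follows from it. Their median difference between suspensor replicates was 1.29-fold, and 17 of the 18 were higher in suspensor replicate 2. The region in which these few suspensor reads arose was not tested.

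The 10 genes of the lowest band had suspensor means between 5.59 and 113 RPKM, or 0.907% to 8.04% of the embryo proper mean. Apart from ranks 3, 4 and 5 they included rank 8, with 456 and 714 RPKM in the embryo proper libraries and 31.9 and 25.5 RPKM in the suspensor libraries. Rank 10 had 370 and 611 RPKM in the embryo proper libraries and 27.3 and 21.0 RPKM in the suspensor libraries. In both, the higher embryo proper value was that of replicate 2 and the higher suspensor value that of replicate 1. Across the 41 genes, the mean levels in the embryo proper and the suspensor had a Spearman's rho of 0.55 (n = 41 genes from the same 4 libraries, a description only).

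**Figure D2:**
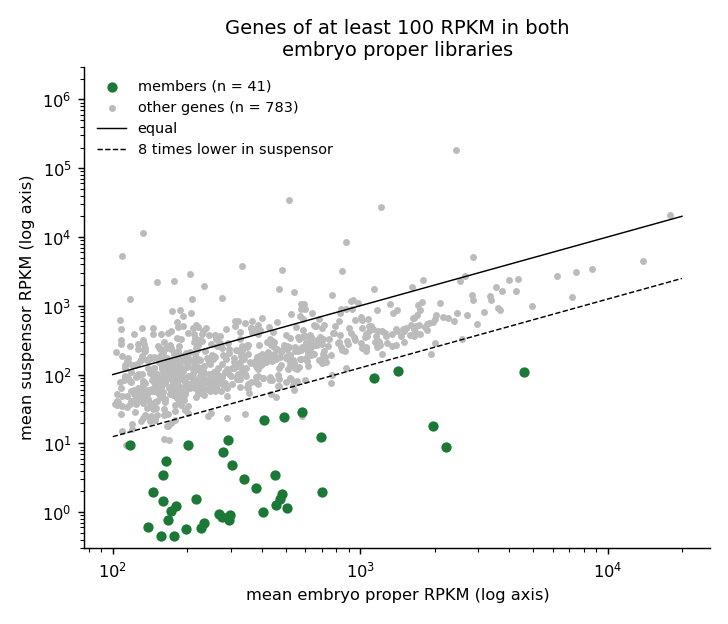
Mean suspensor RPKM against mean embryo proper RPKM, both on log axes, for the 824 genes of at least 100 RPKM in both embryo proper libraries, with lines at equal levels and at an 8-fold lower suspensor level. The 41 chosen genes (large points) all lie below the 8-fold line, with suspensor means of 0.443 to 113 RPKM, and 17 of the other 783 genes (small points) lie there too because the choice used the lower and higher library and not the means.

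Strong enrichment was uncommon among abundant embryo proper genes. Of 824 genes with at least 100 RPKM in both embryo proper libraries, the 41 made up 4.98%. The lower embryo proper value was 4 to 8 times the higher suspensor value in 51 of the 824, 2 to 4 times in 260 and 1 to 2 times in 252. In the other 220 it was below the higher suspensor value. With the regions exchanged, the same rule found 70 genes enriched in the suspensor. These 70 held 35.4% and 45.8% of the summed RPKM of suspensor replicates 1 and 2, a far larger share than the 41 held in the embryo proper. Much of that share came from 1 gene, with 124904 and 239138 RPKM in suspensor replicates 1 and 2. All genes together summed to 773735 and 837969 RPKM in those libraries. The level of the 70 in the other region was 0.661% to 11.1% of their own with a median of 2.05%. For the 41 that share was 0.223% to 8.04% with a median of 0.672%. Both shares were taken from RPKM without rescaling between libraries. The factors by which median ratio rescaling divides were 1.16 and 1.25 for embryo proper replicates 1 and 2. For suspensor replicates 1 and 2 they were 0.885 and 0.781. Such rescaling would raise the share of the 41 and lower that of the 70, which would bring the medians closer together. The difference between these medians was not tested.

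The values on either side of the limits lay close together. Just inside the ratio limit lay ranks 4, 41 and 5, at 8.16, 8.17 and 8.40 times, and just outside lay 3 genes at 7.96, 7.90 and 7.13 times. The first of those outside had 175 and 163 RPKM in the embryo proper libraries, and 20.4 and 1.69 RPKM in the suspensor libraries, so suspensor replicate 1 alone kept it out. Just inside the level limit lay ranks 41, 33 and 37, whose lower embryo proper values were 112, 124 and 130 RPKM. Just outside lay 3 genes at 99.0, 98.2 and 97.5 RPKM.

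For these genes, as for the genes at large, the replicates of the embryo proper differed less than those of the suspensor. The median difference between replicates was 1.24-fold for the embryo proper and 1.49-fold for the suspensor, beside 1.85-fold and 2.37-fold over all tested genes. In the embryo proper, 4 of the 41 genes (9.76%) differed by 2-fold or more between replicates, against 13 (31.7%) in the suspensor. The same shares were 45.5% and 56.7% over all tested genes, whose median embryo proper level was 10.7 RPKM, and 7.41% and 14.3% among the other 783 genes of at least 100 RPKM in both embryo proper libraries. Those 783 genes had median differences of 1.25-fold in the embryo proper and 1.30-fold in the suspensor, where their median level was 162 RPKM. A further 5361 tested genes outside the 41 had suspensor levels between 0.926 and 9.41 RPKM, the quartiles of the 41. Their suspensor replicates differed by a median of 3.10-fold, and 66.2% of them by 2-fold or more. Both values were larger than the 1.49-fold and 31.7% of the 41. Unlike the 41, these genes were also low in the embryo proper, with a median level of 5.82 RPKM and a median replicate difference of 2.31-fold. The rule bounds the lower embryo proper value and the higher suspensor value, so the choice of the 41 genes partly sets how far their replicates can differ, and these values are a description.

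Single genes departed from this by far. Rank 12 repeated the pattern of rank 3 in the embryo proper, with 791 RPKM in replicate 1 and 157 RPKM in replicate 2, and had 1.35 and 1.80 RPKM in the suspensor libraries. Rank 23 had 293 and 263 RPKM in the embryo proper libraries, while in the suspensor it had 0.783 RPKM in replicate 1 and 14.3 RPKM in replicate 2. Rank 19 had 292 and 314 RPKM in the embryo proper libraries and 0.722 and 9.08 RPKM in the suspensor libraries. The suspensor libraries thus disagreed 18.3-fold and 12.6-fold, while the embryo proper libraries of both genes were close. Rank 36 went the other way, with 137 and 182 RPKM in the embryo proper libraries, and 6.61 and 0.357 RPKM in the suspensor libraries.

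The suspensor value was higher in replicate 2 than in replicate 1 for 30 of the 41 genes (73.2%), whereas this held for 45.9% of all tested genes, 50.3% of the other 783 abundant genes and 60.1% of the 311 abundant genes with 2 to 8 times the suspensor level. The 70 genes that the exchanged rule found enriched in the suspensor leaned the other way, with 15 (21.4%) higher in replicate 2. These shares were not tested against each other. Among the 19 genes with a ratio of at least 100, the median difference between suspensor replicates was 1.26-fold and none differed 4-fold. Among the 12 and 10 genes of the lower bands, it was 2.75-fold and 2.04-fold, with 4 and 2 genes at least 4-fold apart. The rule takes the higher suspensor library, so a gene with discordant suspensor replicates falls into a lower band by construction.

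**Figure D3:**
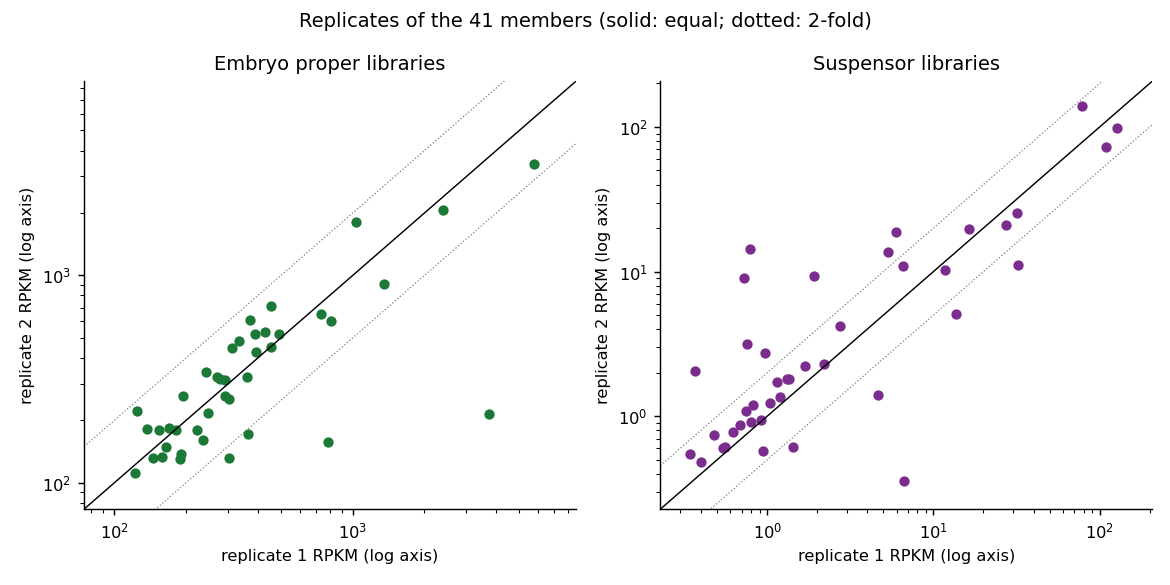
RPKM in replicate 2 against replicate 1 on log axes for the 41 genes, in the embryo proper (left) and the suspensor (right), with solid lines at equality and dotted lines at a 2-fold difference. In the embryo proper 4 genes lie on or beyond the 2-fold lines, against 13 in the suspensor, and ranks 3 and 12 are the 2 genes far below the line on the left.

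Because all libraries chose the 41 genes, the rule was also applied to 1 library of each region and the genes it found were read in the other 2 libraries, which had no part in choosing them. The 4 combinations gave 138, 106, 127 and 100 genes, and each contained all of the 41, as the rule requires. With embryo proper replicate 1 and suspensor replicate 1 as the choosing pair, 73 of 138 genes (52.9%) were at least 8-fold higher in embryo proper replicate 2 than in suspensor replicate 2. With embryo proper replicate 1 and suspensor replicate 2, the count was 81 of 106 (76.4%). With embryo proper replicate 2 it was 65 of 127 (51.2%) when suspensor replicate 1 was used for the choice, and 60 of 100 (60.0%) when suspensor replicate 2 was used. Over all genes of at least 100 RPKM in the choosing embryo proper library, 1033 or 1039 in number, the share at least 8-fold higher in the libraries not used was 8.18% to 12.0%.

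All 41 genes pass in the libraries not used, by the definition of the rule, so they are 41 of the passes in each combination and these shares lend them no support. Outside the 41, the passes were 32 of 97 (33.0%), 40 of 65 (61.5%), 24 of 86 (27.9%) and 19 of 59 (32.2%), beside 4.41% to 8.37% of all genes of at least 100 RPKM outside the 41. Leaving the 41 out removes genes by their values in the very libraries that were set aside, so these shares err low.

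The size of the enrichment shrank in the libraries not used for the choice. The median ratio of embryo proper to suspensor was 40.4, 84.2, 20.7 and 34.6 in the pairs that chose the genes, in the order given above, and 9.55, 33.9, 8.22 and 17.4 in the pairs left aside. Outside the 41, it was 20.9, 50.8, 13.7 and 17.0 in the choosing pairs and 4.85, 11.6, 4.92 and 4.998 in the pairs left aside. The gene was still the higher in the embryo proper in 124 of 138, 100 of 106, 122 of 127 and 96 of 100 cases. Of each set, 14, 6, 5 and 4 genes were not higher there. The 41 are higher there by the definition of the rule. Outside them the counts were 83 of 97, 59 of 65, 81 of 86 and 55 of 59. Over all genes of at least 100 RPKM in the choosing embryo proper library, the median ratio in the pairs left aside was 2.08 to 2.30. How many of those genes were higher there was not counted. These counts describe the libraries, since genes are not replicates, and this reading was added after the data were examined.

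**Figure D4:**
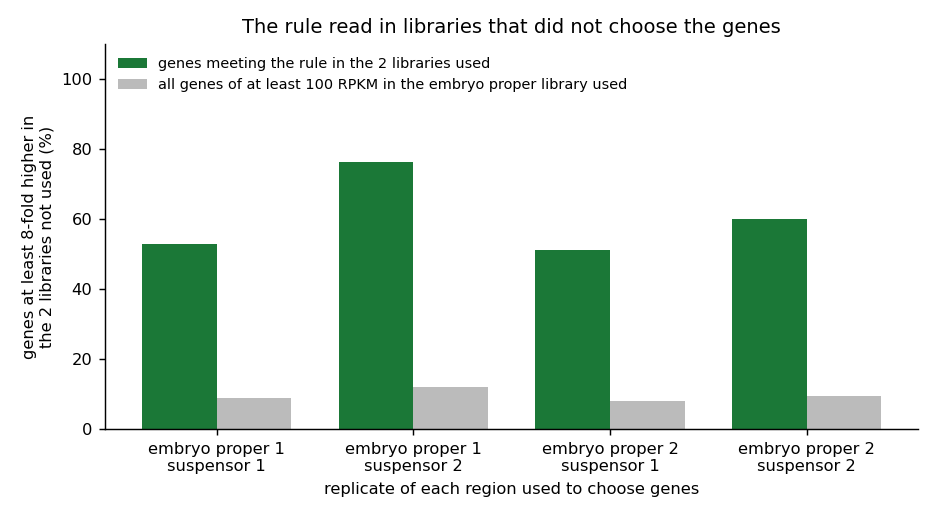
Percentage of genes at least 8-fold higher in the embryo proper library than in the suspensor library left aside, for the 4 combinations of choosing libraries along the horizontal axis. Genes meeting the rule in the choosing pair (green bars) reached 51.2% to 76.4%, with the 41 genes among them and passing by definition, and all genes of at least 100 RPKM in the choosing embryo proper library (grey bars) 8.18% to 12.0%.

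The contrast between the regions was fitted across all 13527 tested genes with limma on log2(RPKM + 1). At a Benjamini-Hochberg adjusted p under 0.05 it called 638 genes (4.72%) higher and 284 genes (2.10%) lower in the embryo proper. All 41 genes were among those called higher, with adjusted p from 0.00207 to 0.0492 (limma). The rule used the same contrast, so nothing follows from that count. All embryo proper values exceeded all suspensor values in the 41 genes, as the rule requires, and in 5068 (37.5%) of the tested genes. The log2 fold changes of the 41 were between 3.60 and 7.90 with a median of 6.47, beside a median of 0.45 over all tested genes. That median of the 41 was 5.10 when 5 rather than 1 was added to the RPKM, 7.31 when 0.1 was added and 7.36 with voom. The highest adjusted p, 0.0492, belonged to rank 3, whose embryo proper replicates disagreed.

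The calls depended on having all 4 libraries, and the count over all genes also on the scaling. Without embryo proper replicate 1 or without replicate 2, limma called none of the 41 genes and none of the 13527, although 40 of the 41 had an unadjusted p under 0.05 each time, with 2043 and 1885 of all tested genes higher at that level. Without suspensor replicate 1 it called 25 of the 41 among only 27 genes called higher (0.200% of all tested), and without suspensor replicate 2 it called 25 among 26 (0.192%), with 20 (0.148%) and 21 (0.155%) genes called lower. Since the 41 were chosen for a wide gap in this contrast, nothing follows from their place among these few. After median ratio rescaling, which moved the median log2 fold change of all genes to 0.01, limma called 225 genes higher and 304 lower, and 39 of the 41 genes among the higher. After quantile normalization the calls were 336 higher and 363 lower.

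Gene length, recovered from the same RPKM steps, had no part in the ratio between regions. The 41 genes had a median length of 1328 bases, with a shortest of 342 and a longest of 2752. The other 783 abundant embryo proper genes had a median of 1080 bases, and all tested genes one of 1628. Genes under 1000 bases made up 10 of the 41 (24.4%) and 346 of the other 783 (44.2%). The 311 abundant genes with 2 to 8 times the suspensor level had a median of 979 bases. RPKM divides by length, so a short gene needs fewer reads to reach 100 RPKM, and these medians were not tested against each other.

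The 41 genes were spread over most groups of IDs. Their first number field, which groups the IDs, was 001 for 9 of the 41 (22.0%), against 10.4% of tested genes and 11.9% of the 824 abundant ones. It was 011 for none, against 7.13% of tested and 7.65% of abundant genes. The fields 002, 003 and 007 held 6, 5 and 5 of the 41, near their shares of the abundant genes. No pair of the 41 had successive ID numbers, and the closest pair was 15 steps apart. Of 44 tested genes whose number directly preceded or followed that of one of the 41, limma called 0 higher and 0 lower in the embryo proper at an adjusted p under 0.05. Over all tested genes these shares were 4.72% and 2.10%, so few calls could fall among 44 genes and nothing follows from the 0. At an unadjusted p under 0.05, 11 of the 44 (25%) were higher and 3 lower, where limma had 20.0% of all tested genes higher and 8.18% lower. With voom on the recovered reads, 7 of the 44 neighbours were called higher, a larger share than the 9.75% of all tested genes. It called 1 of the 44 lower, a smaller share than the 3.32% of all tested genes. These shares were not tested against each other. All embryo proper values exceeded all suspensor values in 17 (38.6%) of these neighbours, close to the 37.5% of all tested genes. Their median log2 fold change was 0.57, beside 0.45 over all tested genes.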

How the data were processed

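RNA was sequenced from 2 embryo proper and 2 suspensor samples, grouped by their titles. For each library the authors deposited a table of RPKM, listing values above 0 only, and a gene missing from a table was set to 0. Bowtie 0.12.7 and bedtools were used, per the submitters' processing notes. The sources used here do not give the build, the annotation, strand or the treatment of reads matching several genes, so near-identical or overlapping genes may carry each other's signal.

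The 41 genes and all lists were chosen with earlier results of these data known. IDs of 2 of the 41 are printed, those with the highest mean embryo proper level and the widest ratio, since no ID has a name here. The gene lists and cell markers planned for matched names could not be used.

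Whole reads, lengths and depths were recovered from the RPKM steps (lengths of 50 to 20000 bases, tolerance 0.02 reads), a method tested on simulated data. All 13527 tested genes gave whole reads. The embryo proper libraries held 38967825 and 32855045 reads, and the suspensor libraries 56899297 and 47091897.

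RPKM is not a count, so limma 3.58.1 (R 4.3.3) was fitted to log2(RPKM + 1) with a single term for region and a trend in eBayes, over genes of at least 1 RPKM in at least 2 libraries. Tests were two-sided with Benjamini-Hochberg adjustment over all tested genes. On this scale the change of low genes is understated. With 2 libraries a region, the test leans on the spread shared across genes (4.33 prior degrees of freedom). The titles call the replicates biological but name no plants, so p-values measure the spread between these libraries. No label ties equal replicate numbers together, and no block was used. Other values were computed with Python 3.11.15, pandas 2.3.3 and scipy 1.17.1. Alternatives covered the pseudocount, filter, scaling, trend, replicate block, voom on recovered reads, single libraries left out and the limits of the rule.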

Additional observations from a re-analysis of the deposited data

How the results depend on the processing

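All 41 genes were higher in the embryo proper under every fit tried, which their choice largely fixes. The number limma called among the 41 was 38 to 41 under both pseudocounts, both rescalings, eBayes without a trend, the replicate block and voom. It was 10 with no filter, where 19883 genes were tested, and 0 to 25 with a library left out. Over all genes, calls higher and lower (638 and 284) became 1337 and 526 when 0.1 was added before the log, 280 and 182 when 5 was added, 10 and 11 with no filter, and 1319 and 449 with voom on recovered reads. The higher calls were 225 after median ratio rescaling, 336 after quantile normalization and 423 without a trend. The paired fit (replicate block) called 1524 and 658, although deviations of equally numbered libraries did not correlate (Pearson's r = -0.03). With a library left out, calls were 0 to 27 higher and 0 to 21 lower, and the lone library was assumed to vary like the other region. Phvul.003G041200 kept its direction with log2 fold changes of 4.99 to 5.81 with a library left out, and lost its call with no filter (log2 fold change 5.40, limma adjusted p = 0.0927) and without either embryo proper library. Phvul.004G006200 ranged from 7.84 to 7.97 with a library left out and from 6.39 (5 added) to 8.80 (voom) over all settings, and lost its call without either embryo proper library. The rule itself gave 96 genes at 50 RPKM, 24 at 200 RPKM, 92 at 4 times and 77 with means of the libraries, and 53 to 83 with a library left out. In 1 library of each region it gave 138, 106, 127 and 100. It gave 32 genes at 16 times, 37 after median ratio rescaling and 40 with RPKM + 1. The share of summed RPKM in the suspensor (mean 0.0632%) was 0.0850% without the 10 highest genes of any library in the sum, and 0.0499% without the most abundant of the 41. What caused these shifts was not tested. Reads at the lowest suspensor values numbered 15 and more, which limits only the counting error of reads and not that of the molecules amplified.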
